A study of Mus musculus with 2 samples.

Results

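The genes described here encode 10 chromatin corepressors that the Snail1 protein is known to bind or recruit: Ezh2, Eed and Suz12 of polycomb repressive complex PRC2, Kdm1a and Rcor1 of the CoREST complex, the histone deacetylases Hdac1 and Hdac2, the Sin3 scaffold Sin3a, and the histone methyltransferases Ehmt2 and Suv39h1. Their probe sets were taken by exact gene symbol in the array's annotation, which gave 23 probe sets for 9 of the 10 genes, out of 34945 probe sets that carry 1 gene symbol. Suv39h1 had no probe set under its symbol and is not analysed here. RNA came from primary endothelial cells, the inner lining of vessels, cultured from C57/BL6 mouse embryos at E10.5 (mid-gestation) that were Snail1f/f, that is, with recognition sites for the Cre recombinase around part of Snail1. The cells called WT ECs received an adenovirus for β-galactosidase and the cells called Snail1 KO ECs an adenovirus for Cre, and both recovered for days in 20% serum with endothelial growth factors. Each group is 1 Affymetrix array. No array holds Cre-infected cells without the floxed allele, so loss of Snail1 and effects of Cre or of the virus cannot be told apart. Whether 1 embryo or several gave the cells is not given in the sources used here.

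Snail1 is a zinc finger repressor that binds E-boxes, and its short N-terminal SNAG domain recruits enzymes that silence the bound gene. Kdm1a (LSD1) removes methyl groups of active promoters with Rcor1 (CoREST) as its partner, Hdac1 and Hdac2 remove acetyl groups, often on the Sin3a scaffold, PRC2 adds the polycomb methyl mark to histone H3, and Ehmt2 (G9a) and Suv39h1 add the methyl mark of silent chromatin. In endothelium Snail1 is best known for endothelial-to-mesenchymal transition, as in the cushions of the embryonic heart. The comparison asks whether the transcripts of this machinery differ between endothelial cells with and without Snail1.

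None of the 9 measured corepressor genes differed by 2-fold between the arrays, and none by 1.5-fold, in its brightest probe set. Of all 12874 genes analysed, 2.81% were past 2-fold and 11.1% past 1.5-fold in either direction, so counts of 0 among 9 genes are near this background. The differences, always Snail1 KO minus WT on the log2 scale, ran from -0.29 for Ezh2 to 0.18 for Sin3a. On the Snail1 KO array 6 of the 9 genes were higher and 3 lower, while 48.9% of all genes analysed were higher. The median difference of the 9 was 0.068 against -0.0083 over all genes analysed. It was -0.017 when all probe sets of a gene were averaged. The median without regard to sign was 0.13 log2 units for the 9 genes and 0.22 for all genes. With 1 array per group there is no spread between cultures, so the differences below are sizes without a test.

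Snai1, the targeted gene, was at a log2 value of 5.33 on the WT array and 3.59 on the Snail1 KO array in its single probe set, 1448742_at, a 3.35-fold lower value. Leaving out controls, 57.5% of probe sets had a lower WT value, and the Snail1 KO value lay below 3.97, the level under which genes were left out. The floxed exons are not named in the labels, and the probes may lie outside the deleted part. In RNA of whole cultures, fewer cells with the transcript and less transcript per cell cannot be told apart.

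RefSeq promoter windows of assembly GRCm38.p6, 250 bases before to 50 after a transcript start, were searched for the Snail-type E-box, CAGGTG or its reverse complement CACCTG, and for the CCAAT box, CCAAT or ATTGG. Of the measured corepressor genes, Hdac1 had no window, and Ehmt2 and Sin3a had more than 1 each. The E-box was in none of 10 windows of 8 measured corepressor genes (Ezh2, Eed, Suz12, Kdm1a, Rcor1, Hdac2, Ehmt2 and Sin3a), against 20.2% of all 32851 windows. It was in 1 of 2 windows of Suv39h1, starting 209 bases before the start, and in the Snai1 window, starting 126 bases before it. The CCAAT box was in 7 of the 10 windows, against 37.4% of all windows, and no E-box overlapped a CCAAT box. The 10 windows held 14 to 41 CG dinucleotides, with a median of 30 against 7 over all windows. All windows are therefore not a background of like base content for the shares above. A match describes the letters and not a bound site, and no match says only that these letters are not in this window. Shown are the 250 upstream bases of Suz12, the corepressor gene with the most probe sets, and of Snai1 and Suv39h1, the genes with an E-box. Capitals mark the E-box and the CCAAT box.
Suz12, chr11:79992856-79993105, plus strand: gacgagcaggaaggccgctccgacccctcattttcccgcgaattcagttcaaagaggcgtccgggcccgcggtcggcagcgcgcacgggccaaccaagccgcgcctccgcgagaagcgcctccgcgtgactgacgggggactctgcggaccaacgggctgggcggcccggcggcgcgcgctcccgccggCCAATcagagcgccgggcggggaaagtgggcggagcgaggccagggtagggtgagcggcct
Snai1, chr2:167537945-167538194, plus strand: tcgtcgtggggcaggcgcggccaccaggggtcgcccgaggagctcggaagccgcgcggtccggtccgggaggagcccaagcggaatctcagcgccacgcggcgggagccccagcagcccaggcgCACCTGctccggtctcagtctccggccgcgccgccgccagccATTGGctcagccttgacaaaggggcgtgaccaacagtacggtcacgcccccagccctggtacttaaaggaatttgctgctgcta
Suv39h1, chrX:8074761-8075010, minus strand: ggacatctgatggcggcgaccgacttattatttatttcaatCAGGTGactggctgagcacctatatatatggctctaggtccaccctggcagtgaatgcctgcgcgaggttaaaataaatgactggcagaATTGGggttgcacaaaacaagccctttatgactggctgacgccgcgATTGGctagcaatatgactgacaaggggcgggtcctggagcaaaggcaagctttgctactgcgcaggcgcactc
The Suz12 stretch holds a CCAAT box and no E-box, and the Snai1 and Suv39h1 stretches hold both.

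Of the PRC2 subunits, Ezh2 and Eed were lower on the Snail1 KO array and Suz12 was higher in its brightest probe set, all within 1.5-fold. Ezh2, the PRC2 methyltransferase, was at 9.47 on the WT array and 9.17 on the Snail1 KO array in its only probe set, a 1.23-fold lower value. Of all genes analysed, 37.1% differed at least as much as Ezh2. Eed, which reads the polycomb mark and stimulates Ezh2, was at 10.38 in WT cells and 10.19 in Snail1 KO cells in 1448653_at, a difference of -0.18, and 56.0% of genes analysed differed at least as much. Its other probe set, 1453830_at, was dim, at 3.91 on each array, under the filter level.

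Suz12, the subunit that holds PRC2 together, had 6 probe sets, of which 5 were higher and 1 lower on the Snail1 KO array. The brightest, 1420021_s_at, was at 9.47 in WT cells and 9.60 in Snail1 KO cells, a difference of 0.13. The next in brightness, 1427253_s_at and 1452364_at, differed by 0.11 and 0.092. The dim probe set 1420022_s_at was at 5.36 in WT cells and 4.70 in Snail1 KO cells, a 1.58-fold lower value, and was the only 1 of the 23 member probe sets past 1.5-fold. Among all probe sets with 1 gene symbol, 4.26% were at least 1.5-fold lower. It was designed from the same sequence record as the brightest probe set and as 1420020_at, which differed by 0.026. The 3 probe sets of that record thus gave values of either sign for the same gene. The sixth, 1449661_at, was at 4.82 and 4.89.

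**Figure D1:**
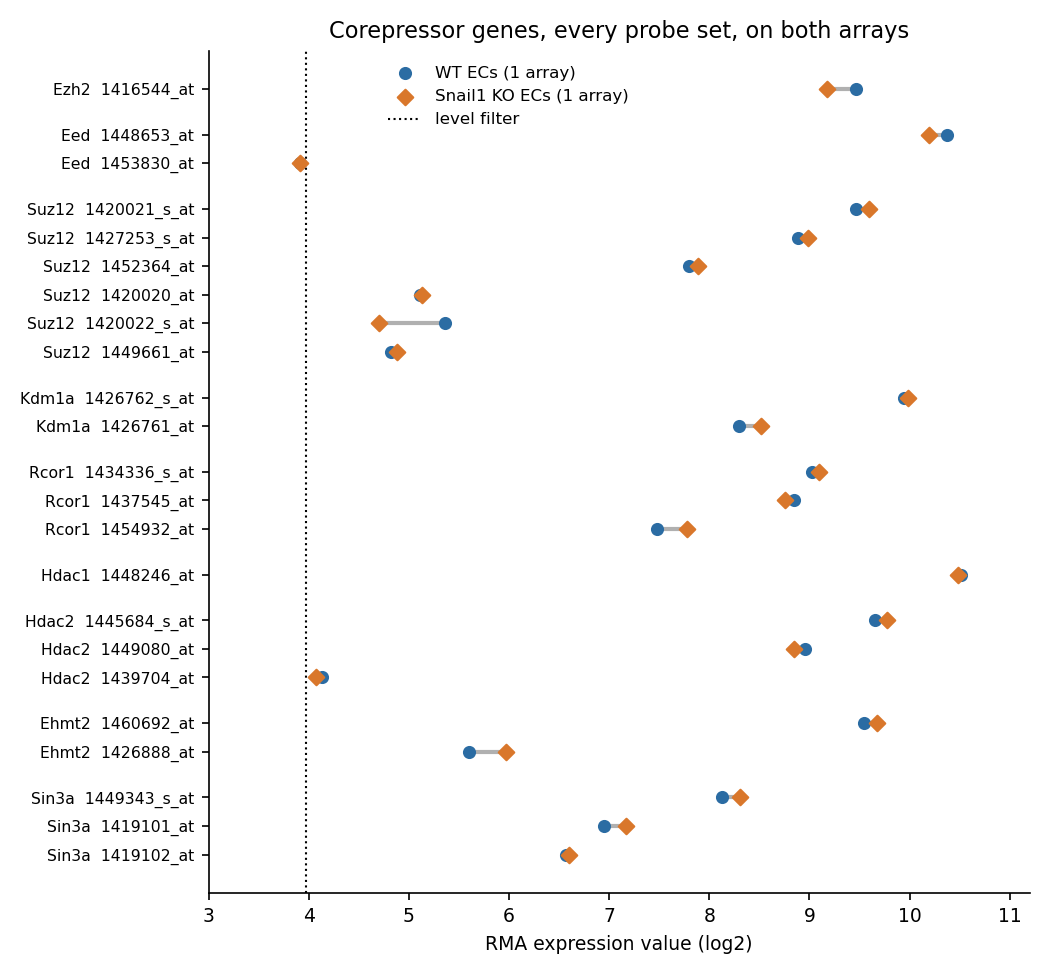
RMA expression value (log2, horizontal axis) of each of the 23 probe sets of the corepressor genes on the WT array (circles) and the Snail1 KO array (diamonds), with a grey line joining the pair and a dotted line at the filter level of 3.97. In 22 of the 23 pairs the arrays lie within 1.5-fold, and the widest gap is that of the dim Suz12 probe set 1420022_s_at, from 5.36 to 4.70.

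Both CoREST members were close to equal on the arrays in their brightest probe sets. Kdm1a, the demethylase that the SNAG domain binds, was at 9.94 in WT cells and 9.98 in Snail1 KO cells in 1426762_s_at, a difference of 0.036, and 90.7% of genes analysed differed at least as much. Its other probe set, 1426761_at, was at 8.30 and 8.52. Both Kdm1a values were thus higher on the Snail1 KO array, by 1.16-fold at most, but the 2 probe sets share 1 sequence record. Rcor1, the CoREST scaffold that couples Kdm1a to nucleosomes and to the deacetylases, was at 9.02 and 9.09 in 1434336_s_at. It was at 8.84 and 8.76 in 1437545_at and at 7.48 and 7.78 in 1454932_at. Its 3 probe sets thus differed by -0.085 to 0.30, in both directions.

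The deacetylases and their scaffold differed by at most 0.22 log2 units in any probe set. Hdac1 was at 10.51 in WT cells and 10.48 in Snail1 KO cells in its only probe set, a difference of -0.027, and 92.9% of genes analysed differed at least as much. Hdac2, the close paralog of Hdac1, was at 9.65 and 9.77 in 1445684_s_at and at 8.96 and 8.85 in 1449080_at. The Hdac2 probe sets therefore had opposite signs, at 0.12 and -0.11, and the dim 1439704_at was at 4.14 and 4.07. Sin3a, the scaffold that carries both deacetylases, was higher in all 3 probe sets, by 0.18 in the brightest (from 8.13 to 8.31), 0.22 in 1419101_at and 0.031 in 1419102_at. These 3 probe sets share 1 sequence record, so they are not separate evidence.

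Ehmt2, the methyltransferase G9a, was at 9.54 in WT cells and 9.67 in Snail1 KO cells in 1460692_at, a difference of 0.13. Its dimmer probe set, 1426888_at, from the same sequence record, was at 5.60 and 5.97, a 1.30-fold higher value and the largest positive difference among the 23 probe sets.

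Probe sets of 1 corepressor gene often differed among themselves by more than the arrays did. Of the 7 members with several probe sets, 4 had 1 sign throughout (Eed, Kdm1a, Ehmt2 and Sin3a) and 3 had both signs (Suz12, Rcor1 and Hdac2). The like signs of the 4 are not separate evidence. The probe sets of Kdm1a, of Ehmt2 and of Sin3a each share 1 sequence record, and the dimmer Eed probe set was under the filter level. In 6 of the 7, the range over probe sets was wider than the difference in the brightest, Eed being the exception. Over all 23 probe sets, 15 were higher and 8 lower on the Snail1 KO array, and 22 were within 1.5-fold. The median was 0.065, against -0.00077 over all named probe sets. Over all named probe sets, 9.52% were past 1.5-fold in either direction. As a yardstick, probe sets of 1 gene scattered around that gene's mean difference with a pooled SD of 0.30 over 6053 genes. The largest of the 9 brightest-probe-set differences, the 0.29 of Ezh2, was about the size of this scatter. The scatter includes probe error and does not replace replicate cultures.

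**Figure D2:**
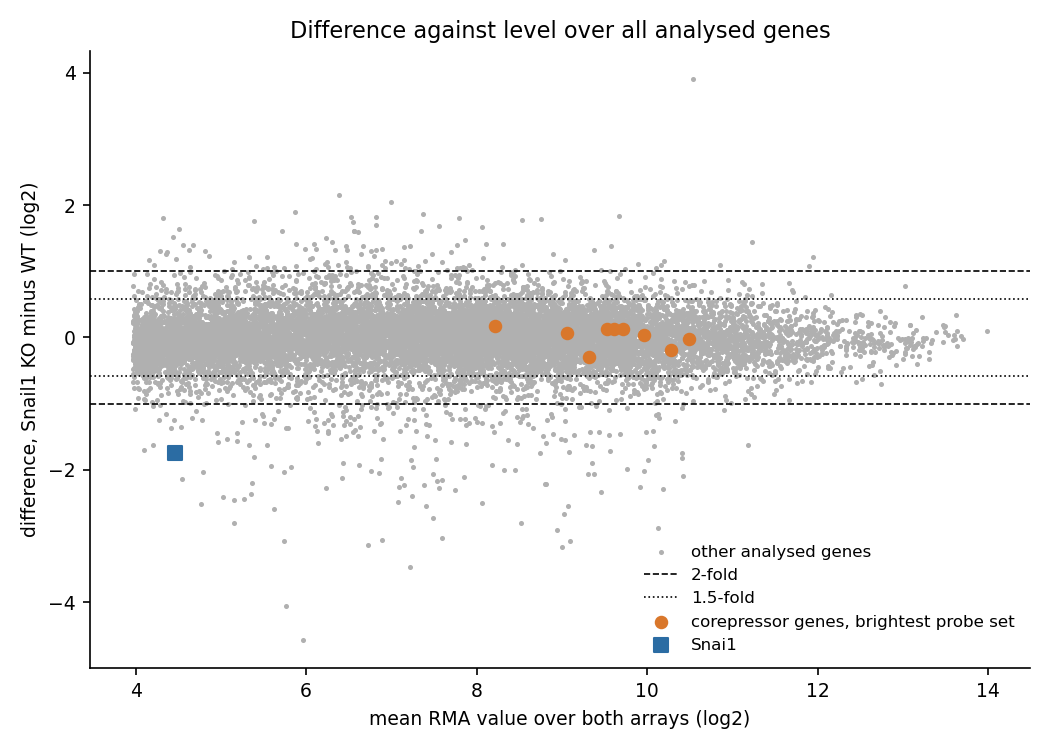
Difference between the arrays (Snail1 KO minus WT, log2, vertical axis) against mean level (log2, horizontal axis) for the 12874 genes analysed, each by its brightest probe set, with lines at 1.5-fold and 2-fold. The 9 corepressor genes (large circles) lie between -0.29 and 0.18, inside the 1.5-fold lines, while Snai1 (square) lies at -1.74.

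All 9 members had a mean log2 value above 8 in the brightest probe set. The 5716 genes this bright had a median difference without regard to sign of 0.21, and 9.48% of them were past 1.5-fold, so small differences were common at this level.

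The other genes of the same complexes and their counterparts were described from 10 lists of 102 genes, of which 97 had a probe set and all 97 passed the filter. Past 1.5-fold in the brightest probe set, 4 of the 97 were higher and 3 lower. That is 4.12% and 3.09%, against 5.06% and 6.08% of all genes analysed. Cbx7 was the only 1 of the 97 past 2-fold in its brightest probe set. The median difference of the 97 was 0.081.

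Of 6 paralogs of the members, Rcor2 was past 1.5-fold and the other 5 were within it. Ezh1, the alternative PRC2 methyltransferase, was at 8.46 in WT cells and 8.81 in Snail1 KO cells, a difference of 0.35 where Ezh2 had -0.29, and its other analysed probe set differed by 0.39. Rcor2, a CoREST paralog, was at 6.24 and 5.53, a 1.64-fold lower value in a single probe set, while Rcor3 was at 8.14 and 8.48 and higher in all 5 of its analysed probe sets. Sin3b was lower by -0.35 in its brightest probe set, with its other 4 between -0.42 and 0.38. Ehmt1, the partner of Ehmt2, differed by -0.065. Suv39h2, the paralog of the unmeasured Suv39h1, was at 5.72 and 5.41 and lower in all 3 analysed probe sets.

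Among accessory subunits of PRC2, 6 of 9 were higher and 3 lower, with a median of 0.050, while 48.9% of all genes analysed were higher. Epop, an elongin-binding PRC2 accessory protein, was the 1 gene past 1.5-fold, at 4.90 in WT cells and 4.13 in Snail1 KO cells, near the filter level. The histone-binding subunits Rbbp4 and Rbbp7, which PRC2 shares with the deacetylase complexes, differed by 0.25 and 0.081 in their brightest probe sets, although the 3 other probe sets of Rbbp4 reached 1.04. The CoREST list had 6 of 7 genes higher in the brightest probe set, against 48.9% of all genes analysed. The list median was 0.29, and Rcor2 was the 1 lower gene. Gse1 was higher by 0.29, but its other analysed probe sets differed by -0.081 and -0.075. Dimmer probe sets of Phf21a and Zmym2 reached 0.76 and 0.88. Neither the NuRD list, the chromatin-remodelling deacetylase complex, nor the Sin3 list had a gene past 1.5-fold in the brightest probe set. Dimmer probe sets of the NuRD genes Gatad2a and Gatad2b reached 0.64 and 0.68. The list medians were 0.15 over 9 NuRD genes and -0.034 over 10 Sin3 genes. The list of further methyltransferases and heterochromatin proteins also had none past 1.5-fold, with a median of -0.065 over 9 genes.

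Genes of PRC1, the polycomb complex that binds the mark made by PRC2, spanned differences from -0.79 to 1.22 in their brightest probe sets. Of 16 analysed, 13 were higher and 3 lower, with a median of 0.21, while 48.9% of all genes analysed were higher. Cbx7, a chromodomain reader of the polycomb mark, was at 4.93 in WT cells and 6.16 in Snail1 KO cells, a 2.33-fold higher value in the 1 of its probe sets above the filter. Averaged with its dim probe sets, the Cbx7 difference was 0.37. Cbx6, another reader, was at 9.47 and 10.15, with its other probe set higher by 0.39. Pcgf5, a subunit of variant PRC1, was at 10.25 and 9.46, a 1.73-fold lower value, but its other analysed probe set differed by -0.033. Pcgf6, also of variant PRC1, had 3 analysed probe sets, which gave 0.21 for the brightest and -0.11 and 1.40 for the dimmer ones. It was named after its values were seen.

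Further Snail1 partners, such as LIM-domain adaptors, had no gene past 1.5-fold and a median of -0.038 over 7 genes. The other deacetylases had none past 1.5-fold and a median of 0.012 over 9. Of enzymes with the opposite activity, the demethylases of silent marks, acetyltransferases and activating methyltransferases, 12 of 14 were higher in the brightest probe set. None was past 1.5-fold in it, and 48.9% of all genes analysed were higher. The list median was 0.18, and 0.11 with the mean over all probe sets. For some of these genes the sign differed between probe sets. Kdm6b was higher by 0.18, but its other analysed probe sets lay between -0.32 and -0.20. In the DNA methylation list, 2 of 7 genes were past 1.5-fold in the brightest probe set, both higher. Of all genes analysed, 5.06% were that much higher. Dnmt3b, a de novo DNA methyltransferase, was at 7.75 and 8.52, with its other probe set higher by 0.93. Tet2, which oxidises methylcytosine, was at 6.74 and 7.36, with its other probe set higher by 0.44. With the mean over all probe sets the count was 1, with Dnmt3b at 0.85 and Tet2 at 0.53. Without probe sets that can bind several transcripts it was also 1. Tet2 differed by 0.62 there, and Dnmt3b was not analysed.

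**Figure D3:**
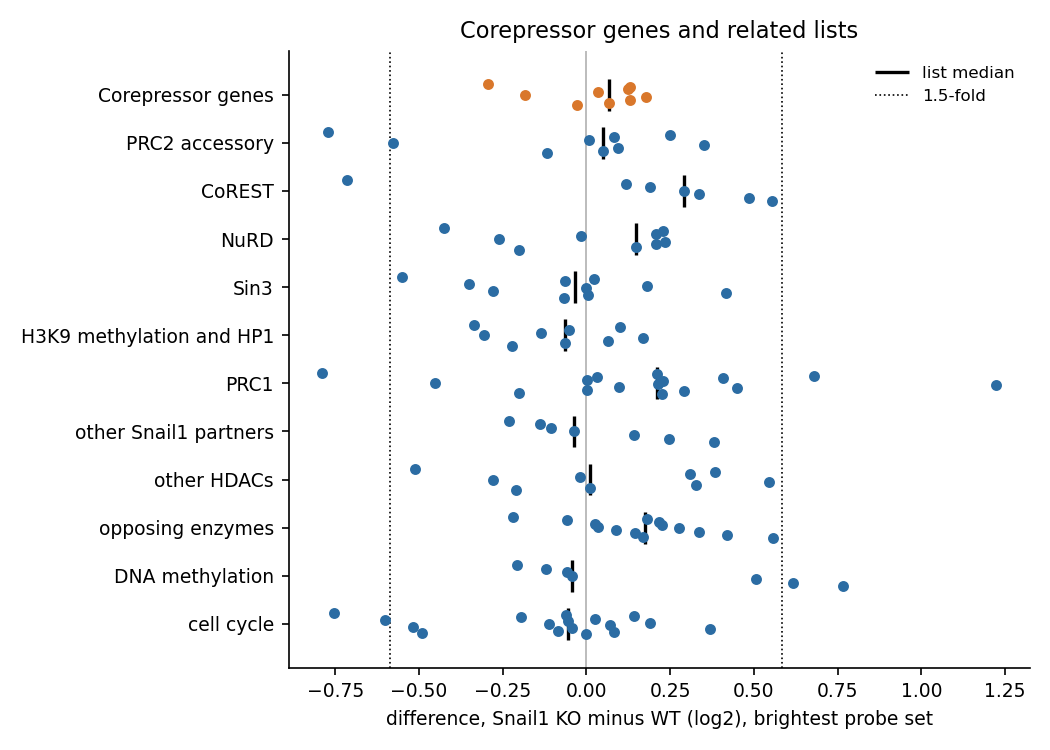
Difference between the arrays (Snail1 KO minus WT, log2, horizontal axis) for each analysed gene of the corepressor set (top) and of the 11 related lists, 1 point per gene by its brightest probe set, with a bar at each list's median and dotted lines at 1.5-fold. The corepressor genes span -0.29 to 0.18, and the widest span is that of PRC1, from -0.79 to 1.22.

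Ezh2 is known to be higher in dividing cells, so cell cycle genes were read on the same arrays. Of 17 analysed, 6 were higher and 11 lower, with a median of -0.054, while 48.9% of all genes analysed were higher. Past 1.5-fold were 2 of the 17, both lower, where 6.08% of all genes analysed were that much lower. These 2 were the mitotic kinases Plk1, at 9.39 in WT cells and 8.64 in Snail1 KO cells, and Cdk1, at 10.84 and 10.24. The proliferation marker Mki67 was at 10.19 and 10.22. The part of proliferation in the lower Ezh2 value was not tested.

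Across the whole table the arrays had median log2 values of 4.66 and 4.70. Of 10 endothelial markers 9 passed the filter, and the tenth, Vwf, was at 3.96 and 3.86. On the Snail1 KO array 7 of the 9 were higher and 2 lower, with a median of 0.39, while 48.9% of all genes analysed were higher. The claudin Cldn5 was 2.11-fold and the receptor Tek 1.53-fold higher, where 5.06% of all genes analysed were at least 1.5-fold higher. Kdr, Tie1 and Eng differed by 0.49, 0.40 and 0.39, and Pecam1 and Cdh5 by 0.034 and 0.12. Emcn and Erg were the lower ones, with differences of -0.40 and -0.25. Of 4 leukocyte markers, Ptprc and Tyrobp were under the filter level on each array, Cd68 was at 7.27 and 7.20, and Coro1a was at 6.80 and 4.84, a 3.89-fold lower value. Of the epithelial markers, Cdh1 was under the filter level and Epcam was at 4.85 and 4.75. Of the 5 mesenchymal or mural markers 4 passed, 1 higher and 3 lower on the Snail1 KO array, with a median of -0.23. Thy1 was at 11.43 and 11.37, Dcn at 9.45 and 9.62, and Pdgfrb at 4.45 and 4.05. Acta2 was at 10.94 and 9.09, a 3.60-fold lower value and the only 1 of the 4 past 1.5-fold. Of all genes analysed, 6.08% were at least 1.5-fold lower. The part of other cells in the corepressor values was not tested.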

How the data were processed

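The deposited values are log2 expression, 1 for each probe set on each array, and the authors made them with RMA in affy, per the submitters' processing notes, which state no versions. RMA brings both arrays to nearly 1 distribution, so a change of total RNA output cannot be seen, and it compresses folds of dim probe sets. No column was left unused. GEO's platform annotation gave 1 symbol to 34945 probe sets, several to 932 and none here to 9160, and 64 are controls. RefSeq's table held the Entrez identifiers of 34741 of the named ones and changed no symbol. Gene lists were matched by exact symbol.

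Differences are Snail1 KO minus WT. The probe set with the highest mean over both arrays stood for its gene. Genes were analysed where this mean exceeded 3.97, the 40th percentile over probe sets that are not controls. Genes were counted at 2-fold and 1.5-fold, and the counting was tested on simulated data. With 1 array per group there is no p-value, and the number of arrays limits the precision. With 2 arrays a pattern is 1 difference, so no gene was sought for likeness of pattern. The members and lists were chosen with earlier results of these data known. Named genes were the members, Snai1, 6 paralogs and, of each list, up to 4 genes past 1.5-fold. Rbbp4, Rbbp7, Aebp2, Gse1, Phf21a, Zmym2, Gatad2a, Gatad2b, Pcgf6, Kdm6b, Mki67 and the cell type markers named were chosen after their values were seen. Alternatives were the mean over all probe sets, leaving out probe sets that can bind several transcripts, centring, no filter, a filter at the 60th percentile, and thresholds of 1.5-fold and 3-fold. Python 3.11.15, pandas 2.3.3, numpy 2.4.6 and matplotlib 3.10.9 were used.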

Additional observations from a re-analysis of the deposited data

Results flagged for a closer look

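The arrays carry 4 control probe sets for the Cre gene of phage P1, which belong to no comparison of genes. Relative to the WT cells, which received no Cre virus, their signal was higher in the Snail1 KO cells by at least 8.04 log2 units. The source of this signal was not tested, and it is listed as a signal outside the main measurement.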

How the results depend on the processing

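No corepressor gene was past 1.5-fold or 2-fold in its brightest probe set, with the mean over all probe sets, without probe sets that can bind several transcripts, after centring, or with either other filter. The 9 differences stayed between -0.29 and 0.25 in these settings. Their median lay between -0.027 and 0.068, so its sign depended on the choice of probe sets. Among the 10 related lists, the number of genes at least 1.5-fold higher fell from 4 to 2 with the mean over all probe sets. Of the 4, Dnmt3b stayed past 1.5-fold, while Cbx6, Cbx7 and Tet2 were within it. The other of the 2 was a CoREST gene that was within 1.5-fold in its brightest probe set. The number was also 2 without probe sets that can bind several transcripts. Cbx6 differed by 0.39 there, and Dnmt3b was not analysed. Sin3b differed by 0.38 in the latter setting, against -0.35 in its brightest probe set, and Pcgf5 by -0.41 with the mean over all probe sets. The cause was not tested. The median of the DNA methylation list was 0.31 with the mean over all probe sets, against -0.044. No paired analysis was possible because each group holds 1 array, and for the same reason no array could be left out. Detection calls were not used here, so signal over background is unknown for single probe sets.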
